A study of Mus musculus with 2 samples.

Results

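The mitosis and cytokinesis machinery was followed here as a set of 36 genes, chosen by symbol for their known roles in separating the chromosomes and dividing the cell. The set holds 7 checkpoint and mitotic kinase genes (with the checkpoint targets that work beside them), 4 genes of the chromosomal passenger complex, 7 kinetochore and centromere genes, 5 spindle motors and microtubule binders, 7 genes of the central spindle and cytokinesis, 2 genes of sister chromatid separation, and 4 genes of transcription and chromatin. All 36 were matched by Ensembl identifier, out of 43346 Ensembl genes (21474 of them protein-coding) in the deposited tables. The samples were single hearts of 2 newborn mice of strain B6NCrl, postnatal age 0 days, without any treatment or genetic change named in the labels. Replicate 1 was the heart of pup 2 and replicate 2 that of pup 3, both from pregnancy 1. The samples carry the same donor identifier and were taken as 2 animals from these descriptions, and sex was not collected. There was 1 group (n = 2) and no other age, tissue or condition, so the data allow a description of levels within the hearts and of the spread between littermates, with no test. An exact sign-flip test over 2 animals could not give a two-sided p below 0.5.

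In dividing cells, Aurora and Polo kinases build the spindle, kinetochores attach the chromosomes to it, and the spindle checkpoint holds back the anaphase-promoting complex until every chromosome is attached. Destruction of securin then frees separase to cut the cohesin that holds sister chromatids together, and the central spindle directs the contractile ring that divides the cell. Around birth, rodent heart muscle cells are known to leave the cell cycle, many after a last nuclear division that is not followed by cytokinesis, while fibroblasts, endothelial cells and blood cells of the heart go on dividing. Many genes of this machinery are known to be switched on late in the cell cycle through a cell cycle homology region (CHR), a short promoter word bound by the MuvB complex, often next to CCAAT boxes bound by the factor NF-Y.

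The promoter windows of the 5 most abundant members that hold a CHR word are shown because the words lie at different places in them. They are RefSeq sequences of build GRCm38.p6, written 5′ to 3′ on the gene's strand from 250 bases before the start site to 30 bases after it. Capitals mark a CHR word (TTTGAA or TTTAAA, or TTCAAA where the first is on the opposite strand) or a CCAAT box (CCAAT, or ATTGG on the opposite strand). Cenpa encodes the histone H3 variant of the centromere (chr5:30666636-30666915, plus strand), and Birc5 encodes survivin of the chromosomal passenger complex (chr11:117848987-117849266, plus strand). Cdc20 encodes the activator of the anaphase-promoting complex (chr4:118437314-118437593, minus strand). Spc25 encodes a subunit of the NDC80 kinetochore complex (chr2:69206184-69206463, minus strand), and Top2a encodes topoisomerase II alpha, which untangles chromosomes (chr11:99024160-99024439, minus strand).
Cenpa: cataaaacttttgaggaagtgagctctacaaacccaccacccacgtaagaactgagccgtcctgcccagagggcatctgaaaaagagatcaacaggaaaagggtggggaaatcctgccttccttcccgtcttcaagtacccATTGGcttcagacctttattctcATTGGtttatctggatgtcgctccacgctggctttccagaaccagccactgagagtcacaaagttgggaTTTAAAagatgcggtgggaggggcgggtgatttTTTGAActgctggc
Birc5: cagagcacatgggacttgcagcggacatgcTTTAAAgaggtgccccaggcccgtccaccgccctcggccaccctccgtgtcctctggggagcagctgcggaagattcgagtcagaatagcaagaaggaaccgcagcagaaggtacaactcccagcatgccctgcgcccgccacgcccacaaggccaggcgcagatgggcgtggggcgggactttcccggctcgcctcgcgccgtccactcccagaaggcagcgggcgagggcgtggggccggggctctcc
Cdc20: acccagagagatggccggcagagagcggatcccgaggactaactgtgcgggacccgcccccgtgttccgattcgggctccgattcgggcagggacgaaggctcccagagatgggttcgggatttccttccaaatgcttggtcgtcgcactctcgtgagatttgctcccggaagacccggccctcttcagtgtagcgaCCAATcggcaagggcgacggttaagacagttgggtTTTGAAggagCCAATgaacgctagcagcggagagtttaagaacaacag
Spc25: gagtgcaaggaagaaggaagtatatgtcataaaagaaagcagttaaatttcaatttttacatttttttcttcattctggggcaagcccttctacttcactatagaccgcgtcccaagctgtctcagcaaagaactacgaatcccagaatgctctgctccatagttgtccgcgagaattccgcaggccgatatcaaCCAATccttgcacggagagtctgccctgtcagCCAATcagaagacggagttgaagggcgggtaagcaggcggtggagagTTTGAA
Top2a: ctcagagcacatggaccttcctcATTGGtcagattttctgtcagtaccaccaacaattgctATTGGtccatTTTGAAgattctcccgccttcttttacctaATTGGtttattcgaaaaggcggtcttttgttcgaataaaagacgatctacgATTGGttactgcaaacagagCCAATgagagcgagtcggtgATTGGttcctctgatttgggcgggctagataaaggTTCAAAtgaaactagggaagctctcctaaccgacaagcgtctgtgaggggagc

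In Cenpa, Cdc20, Spc25 and Top2a a CHR word lay within 30 bases of the start site with a CCAAT box upstream of it, whereas the single CHR word of Birc5 lay far upstream and its window held no CCAAT box. RefSeq promoter windows were matched for 30 of the 36 members, and 2 of these genes, Prc1 and Ect2, had 2 windows each. No window was matched for Aurkb, Foxm1, Incenp, Kif20a, Spc24 and Tpx2. A CHR word on either strand stood in the window of 23 of 30 members (76.7%), against 28.2% of 17492 protein-coding genes with windows of the same length. The word TTTGAA alone was held by 70% of members and 18.5% of all genes, and TTTAAA, which reads the same on both strands, by 26.7% and 13.8%. Counted only from 100 bases before the start site onward, a CHR word was found in 70% of members and 12.8% of all genes. A CCAAT box stood in 66.7% of members against 42.3% of all genes, and 40% of members against 14.6% of all genes had 2 or more. A window with both a CHR word and a CCAAT box belonged to 19 of 30 members (63.3%) and to 11.5% of all genes. An E2F word (TTTCCCGC, TTTCGCGC, TTTGCCGC or TTTGGCGC, either strand) was in 0 of 30 member windows and in 3.29% of all genes, which says only that these letters are not in the windows. A CHR word and a CCAAT box can share a letter at their ends, and did so in 1 of the 32 member windows, that of Cdca8. Median GC content was 59% in the member windows and 56.3% in all windows. The members were chosen for a shared role and many are known targets of this regulation, so these shares describe the set and carry no test.

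**Figure D1:**
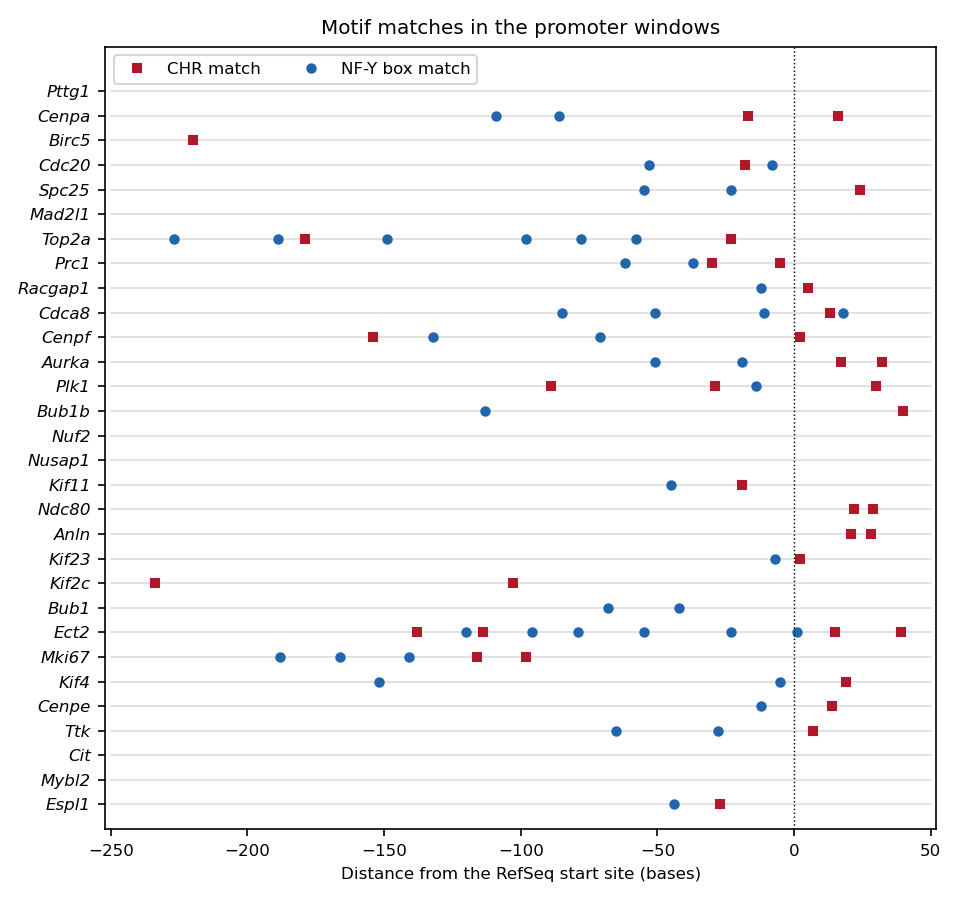
Position of CHR words (squares) and CCAAT boxes, the NF-Y boxes (circles), in bases from the RefSeq start site (dotted line) for the 30 members with a promoter window, ordered from the highest to the lowest mean TPM. Both windows of Prc1 and of Ect2 are drawn on 1 line, so words in their overlap appear more than once. The 37 CHR matches have a median position of 2 bases after the start and the 44 CCAAT matches a median of -56.5, and the lines of Pttg1, Mad2l1, Nuf2, Nusap1, Cit and Mybl2 are empty.

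By position, 29 of the 37 CHR matches in the 32 windows lay from 100 bases before the start site onward, with a median of 2 bases after it. The 44 CCAAT matches had a median position of -56.5 bases, and 33 of them lay in the same stretch. These counts and medians include words of Prc1 and Ect2 more than once, since the 2 windows of each overlap, and the matches fell on 34 and 40 distinct places in the genome. In 17 of the 19 genes with both words, every CCAAT box of the window was upstream of the CHR word that lay furthest downstream, and Cdc20 and Cdca8 each had 1 box after it. Among matched members, 7 had no CHR word: Pttg1, Mad2l1, Nuf2, Nusap1, Bub1, Cit and Mybl2. Pttg1, the most abundant member, had neither word in its window, and Espl1, the least abundant, had both. The matches are letter matches only, and no binding was measured.

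Libraries held 46151722 and 44707283 expected counts (reads shared out over genes by the authors' quantification), and the members took 0.12% and 0.118% of them. Member counts ran from 295 to 4325 in replicate 1 and from 292 to 3714 in replicate 2. The posterior SD of a member's count, which measures reads shared with other genes, was at most 0.812% of the count. Levels are in TPM, a share of all transcripts after division by their length. Of the marker lists, that of heart muscle had the highest summed levels in both libraries, 51430 and 47227 TPM over 8 genes. All 8 fibroblast, 8 endothelial and 8 macrophage markers were detected at 1 TPM or more in both pups, and their sums ranged from 108 to 1548 TPM. Of 8 lymphoid markers 0 were detected, and their sums were 0.61 and 0.78 TPM. The libraries stood furthest apart in 2 marker lists. Red cell markers summed to 6036 and 3916 TPM (4 of 7 matched genes detected), and lung epithelial markers to 32.5 and 640 TPM (1 of 8 detected in both). The lung markers did not move together: the airway gene Scgb3a2 was at 2.96 and 563 TPM and Scgb1a1 at 0.97 and 74.3 TPM, while the alveolar gene Sftpc was at 25.5 and 0.34 TPM. Smaller shifts on counts scaled between the libraries were a median log2 ratio, replicate 2 over replicate 1, of 0.14 for the macrophage markers (7 of 8 above 0, 2 past 1.2-fold) and -0.14 for the heart muscle markers (6 of 8 below 0, 1 past 1.2-fold). In these lists Nkx2-1 was at 0.04 TPM in each pup, and no listed red cell gene was at 0.

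All 36 members were detected at 1 TPM or more in both hearts, where 54.5% of 21474 protein-coding genes were. Of the members, 20 reached 10 TPM in both pups and 7 stayed under 5 TPM in both. Their summed level was 772 and 746 TPM (replicate 1 and replicate 2, the order used throughout), or 759 TPM ± 18.4 (SD, n = 2). The median member stood at 11.1 TPM and 11.3 TPM, beside 12.1 TPM and 11.9 TPM for the detected protein-coding genes, and 16 and 17 members were above those medians. The typical member thus lay near the middle of the detected genes, and a few were abundant, since the 3 highest held 40.5% and 38.5% of the sum. Whole hearts were sequenced, so fewer dividing cells and less RNA in each dividing cell cannot be told apart, and neither can the cell types that hold these transcripts.

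**Figure D2:**
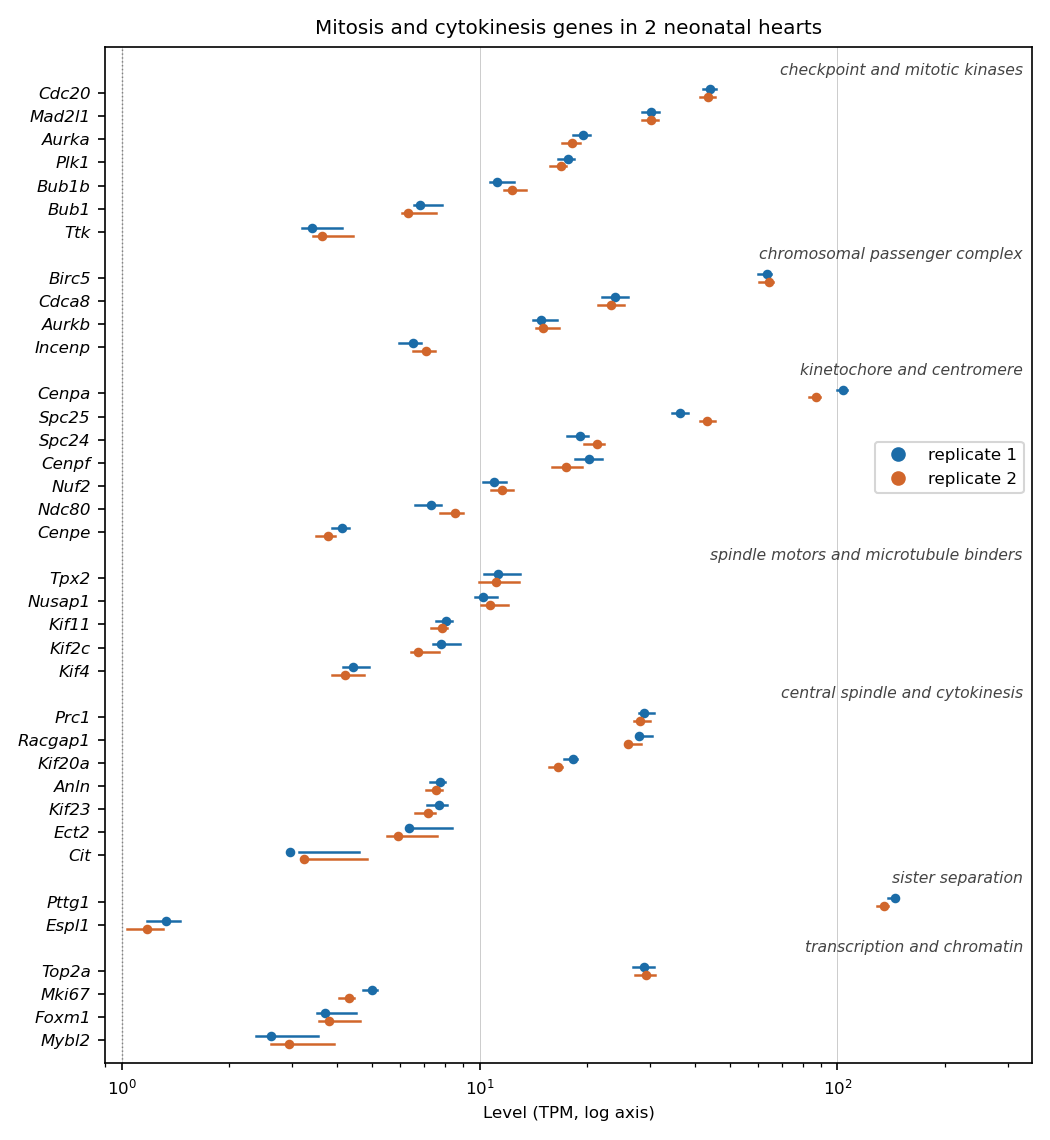
Level of each member in TPM (log axis) in replicate 1 (blue) and replicate 2 (orange), grouped by role and ordered by mean level. Bars are the deposited credibility intervals of each library, whose width is not stated, and do not measure the spread between animals. Pttg1 (145 and 135 TPM) and Cenpa (104 and 87.4 TPM) lie at the top and Espl1 (1.33 and 1.18 TPM) at the bottom, and the point of Cit in each pup lies below its bar, which brackets the authors' posterior mean.

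Among the kinases and checkpoint genes, summed levels were 133 TPM and 131 TPM. Cdc20, the anaphase activator that the checkpoint restrains, was the highest of them at 43.99 TPM and 43.61 TPM. Mad2l1, which encodes the MAD2 protein that binds CDC20, was at 30.2 TPM in each pup, so Cdc20 stood 1.45-fold above its inhibitor. Aurka, the kinase of the spindle poles, was at 19.4 TPM and 18.1 TPM. Plk1, the Polo kinase that acts from mitotic entry to cytokinesis, was at 17.7 TPM and 16.8 TPM. The remaining checkpoint kinases were lower. Bub1b, encoding BUBR1 of the mitotic checkpoint complex, was at 11.2 TPM and 12.3 TPM, and Bub1, the kinase that recruits it to kinetochores, at 6.81 TPM and 6.33 TPM. Ttk, encoding the kinase MPS1 that starts checkpoint signalling, was the least abundant of the group at 3.41 TPM and 3.64 TPM. In each heart Mad2l1 stood above Bub1b (ratio of means 2.57) and Bub1 below it (0.559).

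The chromosomal passenger complex, which corrects faulty attachments and later moves to the central spindle, had uneven subunits that hardly moved between the pups. Survivin (Birc5) was at 63.6 TPM and 64.3 TPM. Borealin (Cdca8), which helps place the complex on the centromere, was at 24.0 TPM and 23.3 TPM. Aurkb, its kinase, was at 14.88 TPM and 15.03 TPM. Incenp, the scaffold that activates the kinase, was the lowest at 6.50 TPM and 7.10 TPM. The order survivin, borealin, Aurora B, INCENP was the same in both hearts, and each subunit gene stood apart from Aurkb, at ratios of 4.27, 1.58 and 0.455. Aurka exceeded Aurkb 1.25-fold, while Plk1 and Aurkb were not separated, since their intervals overlapped in replicate 2.

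At the kinetochore and centromere the summed level was 202 TPM and 193 TPM, the highest of the 7 roles at the gene level. On complete coding transcripts, described further on for Cenpa and Cenpf, it was 113 TPM and 119 TPM, below that of the kinases and of sister separation. Cenpa, the centromeric histone, was at 104 TPM and 87.4 TPM (95.7 TPM ± 11.8, SD, n = 2). The NDC80 complex, whose 4 subunits join in a rod that grips microtubules, was also uneven. Its inner dimer was the more abundant: Spc25 was at 36.4 TPM and 43.3 TPM, and its partner Spc24 at 19.1 TPM and 21.2 TPM. The outer, microtubule-binding dimer was lower, with Nuf2 at 11.0 TPM and 11.6 TPM and Ndc80 at 7.31 TPM and 8.52 TPM. Spc25 was 5.03-fold above Ndc80, Spc24 was at 0.506 of Spc25, and Ndc80 at 0.702 of Nuf2. These subunits are known to assemble in equal numbers as proteins, and no protein was measured here. Cenpf, a large outer kinetochore protein, was at 20.2 TPM and 17.4 TPM, and the kinetochore motor Cenpe at 4.14 TPM and 3.77 TPM.

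Spindle motors and microtubule binders were lower, with sums of 41.8 TPM and 40.7 TPM over 5 genes. Tpx2, the activator of Aurora A, was at 11.3 TPM and 11.1 TPM, and Nusap1, which bundles spindle microtubules, at 10.2 TPM and 10.7 TPM. These genes were not separated from each other. The same held for Kif11, the motor that pushes spindle poles apart, at 8.08 TPM and 7.86 TPM, and the microtubule depolymerase Kif2c at 7.79 TPM and 6.74 TPM. Kif4, a chromosome-bound motor that also works at the central spindle, was the lowest at 4.42 TPM and 4.21 TPM. Tpx2 stood at 0.597 of Aurka.

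The central spindle and cytokinesis genes summed to 99.9 TPM and 94.5 TPM. Prc1, which cross-links the overlapping microtubules of the central spindle, was at 28.9 TPM and 28.0 TPM. Racgap1, the GTPase-activating subunit of centralspindlin, was close to it at 27.9 TPM and 26.0 TPM. Its partner motor Kif23 was much lower, at 7.71 TPM and 7.17 TPM, or 0.276 of Racgap1. Kif20a, the motor that carries the passenger complex to the central spindle, was at 18.3 TPM and 16.6 TPM, or 2.34-fold above Kif23. Anln, encoding anillin of the contractile ring, was at 7.77 TPM and 7.55 TPM. Ect2, the exchange factor that activates RhoA at the cleavage site and is recruited by RACGAP1, was at 6.37 TPM and 5.91 TPM, or 0.228 of Racgap1. Cit, the citron kinase of the midbody, was the lowest at 2.96 TPM and 3.24 TPM. In each pup this Cit value lay below the deposited interval (3.13 to 4.59 TPM in replicate 1, 3.31 to 4.84 TPM in replicate 2), so its level was not well fixed.

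In sister separation the range was widest. Pttg1, encoding securin, was the most abundant member at 145 TPM and 135 TPM (140 TPM ± 6.75, SD, n = 2). Espl1, encoding separase, the protease that securin holds inactive, was the least abundant at 1.33 TPM and 1.18 TPM. Securin mRNA was 111-fold above separase mRNA. Of the last group, Top2a was at 28.9 TPM and 29.2 TPM. Mki67, the widely used proliferation marker that coats mitotic chromosomes, was only at 5.01 TPM and 4.31 TPM, so Top2a stood 6.23-fold above it at the gene level and 3.74-fold above it on complete coding transcripts. Foxm1 and Mybl2 encode transcription factors that act with the MuvB complex on late cell cycle genes. Foxm1 was at 3.69 TPM and 3.80 TPM, Mybl2 at 2.61 TPM and 2.94 TPM, and they were not separated.

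**Figure D3:**
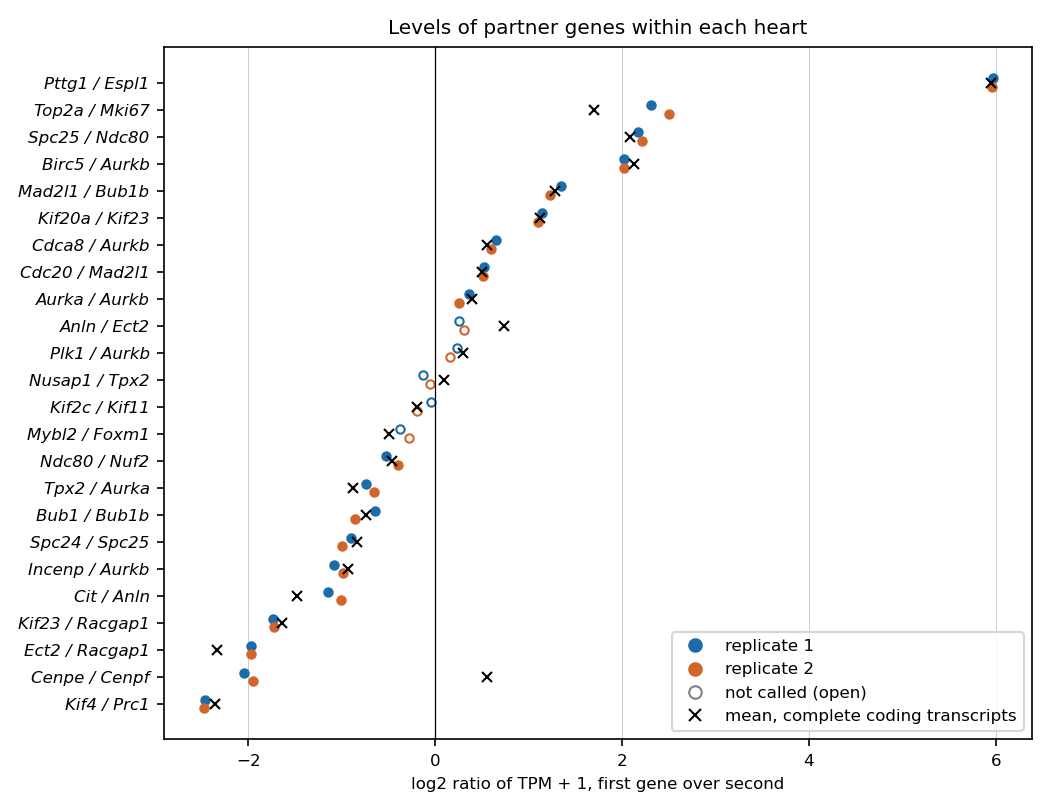
Log2 ratio of TPM + 1 within each heart for the 24 pairs of partner genes, first gene over second (blue, replicate 1; orange, replicate 2; open circles, pairs not called). Crosses give the mean ratio computed on complete coding transcripts, where Cenpe over Cenpf moves from -2.00 to 0.56, the 1 called pair whose sign changes.

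Of 24 pairs of partner genes compared within each heart, 19 were called: the ratio had the same sign in both pups, exceeded the difference between the pups, and the intervals were apart in both. The first gene was higher in 9 and the second in 10. The 5 pairs not called were Plk1 and Aurkb, Anln and Ect2, Kif2c and Kif11, Nusap1 and Tpx2, and Mybl2 and Foxm1. In the order of mean TPM over all members, only 9 of 35 neighbouring genes had intervals apart in both pups. They separated Pttg1 from Cenpa, Cenpa from Birc5, Birc5 from Cdc20, Spc25 from Mad2l1, Racgap1 from Cdca8, Aurkb from Bub1b, Nusap1 from Kif11, Ect2 from Mki67, and Mybl2 from Espl1. All other neighbours in that order were not separated. Longer members tended to have lower TPM: across the 36 members Spearman's rho between the deposited gene length and mean TPM was -0.72, and across 11699 detected protein-coding genes it was -0.42. With the count, which is not divided by length, rho was -0.26 over the members and -0.02 over the detected genes. The deposited gene length depends on which transcripts the reads were assigned to. With the longest complete coding transcript in its place, rho with mean TPM was -0.61 over the members and -0.35 over 11655 detected genes. With the count it was then -0.15 over the members. TPM contains the length as a divisor and all points come from the same 2 libraries, so these correlations are descriptions.

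Gene levels rest on the transcripts to which reads were assigned, and for most members these were complete coding ones (with a start and stop codon in the GENCODE M21 annotation). They held over 90% of the gene's TPM in both pups for 26 of 36 members and under 50% for 2, Cenpa and Cenpf. For Cenpa, the main transcript was Cenpa-202, annotated as a target of nonsense-mediated decay, with 46.3% and 48.8% of the gene's TPM. The complete coding Cenpa-205 held 34.2% and 34.3%. On complete coding transcripts Cenpa was at 35.98 TPM and 30.86 TPM. The order of the most abundant members thus depends on which transcripts are counted, and Cenpa would stand below Birc5 and Cdc20. By the mean it would also stand below Spc25 (33.4 against 36.9 TPM), although in replicate 1 Spc25 was lower, at 33.37 TPM.

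Cenpf was the more extreme case. Its main transcript was Cenpf-203, an incomplete coding model of 3001 bases (43.4% and 42.7% of TPM), followed by Cenpf-201, a decay target of 609 bases (36.9% and 38.5%). The full-length Cenpf-204, of 11130 bases, held 12.6% of TPM in each pup but 47.7% and 48.2% of the gene's counts. On complete coding transcripts Cenpf was at 2.54 TPM and 2.20 TPM, and Cenpe then stood above it (log2 ratio 0.56 in place of -2.00). Short models weighed on Top2a in the same way. Top2a-201, which encodes the protein, held 59.4% and 60.6% of its TPM and 91.4% and 92.1% of its counts, and was at 17.2 TPM and 17.7 TPM. For Cit, the 9514-base Cit-201 held 72% and 64.9% of TPM and 92% and 91.8% of counts.

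**Figure D4:**
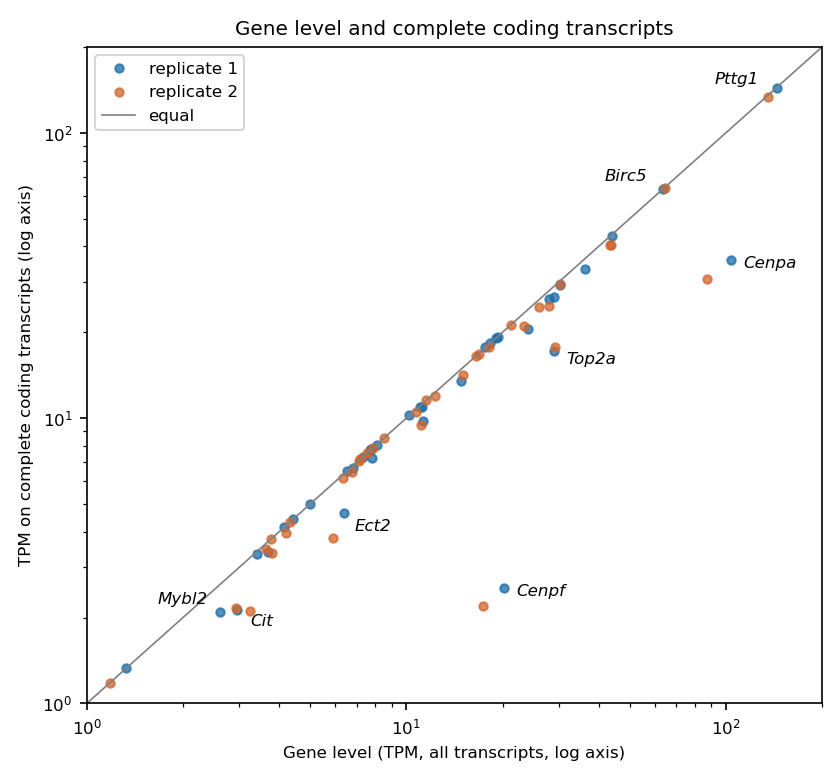
Level of each member on complete coding transcripts against its gene level, both in TPM on log axes, in replicate 1 (blue) and replicate 2 (orange). The grey line marks equality. Cenpa (104 against 35.98 TPM in replicate 1), Cenpf (20.2 against 2.54 TPM), Top2a and Ect2 lie below the line, and most other members lie on or near it.

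Of the 21 members with 5 TPM or more in both pups and more than 1 transcript, all 21 had the same main transcript in both, where 94.6% of 6445 such genes did. A further 10 members had 1 transcript and 5 were under 5 TPM. Exons of 8 members overlapped those of another gene. The largest overlaps were with genes on the opposite strand, Cdc23 for Kif20a (29.3% of the member's exon bases), Pdzd11 for Kif4 (15.1%) and Rccd1 for Prc1 (11.1%). The sources used here do not say whether strand was used in counting, so the levels of these 3 members are uncertain to that extent. The posterior SD, which measures reads shared with other genes, was 0% of the count for Prc1 in both libraries. It was at most 0.67% for Kif20a and 0.812% for Kif4. Strand use was not tested. For Kif4, at 4.42 and 4.21 TPM, the opposite gene Pdzd11 was far higher at 57.7 TPM and 66.9 TPM.

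Between the littermates the machinery differed little. Ratios are log2 of replicate 2 over replicate 1 on counts scaled by TMM, and 1 of 36 members (2.78%) was past 1.2-fold in either direction, where 15.2% of 13463 genes were. The 1.2-fold bound was past on the higher side for 0 members (7.9% of all genes) and on the lower side for 1 (7.35%). Among the 8309 genes in the members' range of mean counts, 9.52% were past 1.2-fold. Credibility intervals of the pups were apart for 4 members (11.1%), Cenpa, Spc25, Kif20a and Mki67, beside 17.6% of all genes. Of the members, 16 had a ratio above 0 and 20 below. Their median was -0.03 and that of all genes -0.00, and the median absolute ratio was 0.09 for the members, 0.10 for all genes and 0.09 for genes in the same range of counts. With 1 library on each side, none of these differences can be assigned to the animals beyond their libraries.

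**Figure D5:**
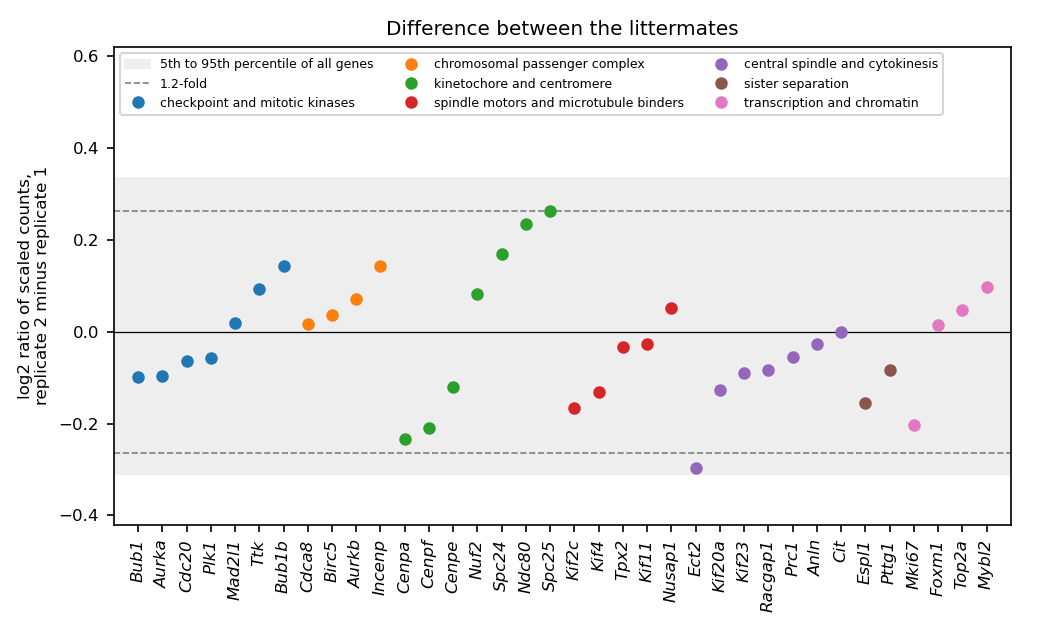
Log2 ratio of TMM-scaled counts, replicate 2 minus replicate 1, for each member, coloured by role. The grey band spans the 5th to 95th percentile of all genes (-0.31 to 0.34) and the dashed lines mark 1.2-fold. Ect2 is the 1 member past the dashed lines, at -0.30, and Spc25 lies just inside the upper line at 0.26.

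Ect2 was the member past the bound, with 823 counts in replicate 1 and 656 in replicate 2 (log2 ratio -0.30, or 0.814-fold). In TPM it differed little (-0.09), because the mean transcript length, as assigned, was shorter in replicate 2. The mean transcript length of Ect2 was 3485 bases and 3039 bases. An incomplete coding model of 712 bases held 5.61% of its TPM in replicate 1 and 27% in replicate 2, and the 4086-base Ect2-203 32.8% and 16.4%. Spc25 lay just inside the bound, with 1763 and 2072 counts (log2 ratio 0.26), and Ndc80 was next at 0.24.

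Members of 1 complex lay on the same side of 0 in some groups, within a range that most genes share. All 4 NDC80 subunits were higher in replicate 2, with Spc24 at 0.17 and Nuf2 at 0.08, and so were all 4 passenger complex genes, from 0.02 (Cdca8) to 0.14 (Incenp), on TMM-scaled counts. As a TPM ratio Cdca8 was on the other side, at -0.04, and so was the checkpoint gene Mad2l1, at 0.02 on counts and -0.00 in TPM. Cenpa (-0.23), Cenpf (-0.21), Mki67 (-0.20), Kif2c (-0.16) and Espl1 (-0.15) were higher in replicate 1. Of the 7 central spindle and cytokinesis genes 6 were below 0, with a median of -0.08, and Cit was at 0.00 (-0.01 with DESeq2 size factors). None of these named members was past 1.2-fold. Red cell markers were also higher in replicate 1 (median log2 ratio -0.70, 5 of 5 tested genes below 0) and macrophage markers mostly higher in replicate 2. Fibroblast markers had a median of 0.09 (6 of 8 above 0) and endothelial markers a median of -0.08 (2 of 8 above 0), with 0 past 1.2-fold in either list. Of 4 tested lung epithelial markers 2 were past 1.2-fold higher and 2 past it lower in replicate 2. The part of these cell types in the members' differences was not tested.

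The machinery around the members was present as well. Of 159 other mitosis genes on 8 lists, 149 were detected in both pups, where 54.5% of 21474 protein-coding genes were. Of the 154 with enough counts, 2 were higher and 6 lower in replicate 2 past 1.2-fold, with a median ratio of 0.01. Among all 13463 genes with enough counts, 7.9% were higher and 7.35% lower. The same shares of all genes stand beside the counts of each list below. Cdk1, the kinase that drives mitotic entry, was at 92.2 TPM and 86.4 TPM (57.45 and 57.38 TPM on complete coding transcripts) and headed the 18 other kinase and checkpoint genes, of which 17 were detected. It was followed by the checkpoint gene Bub3 (52.8 and 54.4 TPM) and Mad2l2 (27.6 and 30.4 TPM). The lowest of that list were the histone kinase gene Haspin (3.04 and 2.30 TPM), Mastl (2.54 and 2.00 TPM), and Aurkc, the Aurora kinase of germ cells, at 0 counts in both. Of the 5 mitotic cyclin genes 4 were detected: Ccnb2 at 51.5 and 46.2 TPM, Ccnb1 at 43.3 and 37.0 TPM, Ccna2 at 33.4 and 31.6 TPM, and Ccnf at 5.87 and 5.54 TPM. Ccnb3 was at 0.04 and 0.07 TPM. The 4 detected cyclin genes were all lower in replicate 2, with a median of -0.10, and 0 were past 1.2-fold.

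Of 32 other kinetochore and centromere genes 31 were detected. Zwint led at 109 and 106 TPM, before Pmf1 of the MIS12 complex (47.7 and 49.6 TPM) and Hjurp, the chaperone that loads CENP-A (21.2 and 22.1 TPM). Zwint was close to Cenpa only at the gene level. On complete coding transcripts Zwint was at 109.09 and 105.92 TPM and Cenpa at 35.98 and 30.86 TPM. The lowest were Nsl1 (2.62 and 3.01 TPM), Cenpo (2.38 and 1.89 TPM) and Kntc1 (0.94 and 1.11 TPM). Among 25 other spindle genes 20 were detected, led by Stmn1, a microtubule destabiliser (283 and 292 TPM), Clasp1 (44.2 and 32.1 TPM, or 28.8 and 19.9 TPM on complete coding transcripts) and Tubg1 (29.95 and 29.25 TPM). Kif14 (0.60 and 0.64 TPM), Kifc5b (0.32 and 0.34 TPM) and Kif2b (0 counts in both) were the lowest. All 16 other cytokinesis genes were detected, led by Rhoa (252 and 246 TPM), the GTPase of the contractile ring, Sept2 (196 and 197 TPM) and Sept7 (153 and 160 TPM). Those genes also serve cells that do not divide. The lowest were Myh9 (13.3 and 11.9 TPM), the midbody gene Cep55 (6.34 and 6.42 TPM) and Arhgap11a (6.01 and 4.73 TPM).

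The anaphase-promoting complex and its ubiquitin partners, the ligase that CDC20 activates, were detected in full (19 of 19) and none was past 1.2-fold. The most abundant were the small subunit gene Anapc13 (244 and 253 TPM), Ube2s (141 and 127 TPM) and Anapc11 (124 and 140 TPM). The lowest were Anapc1 (12.1 and 10.6 TPM), Fbxo5, encoding the inhibitor EMI1 (9.57 and 8.61 TPM), and Anapc10 (7.52 and 8.07 TPM). Of 23 condensin and cohesin genes 22 were detected, from Smc4 (58.3 and 60.3 TPM), Ncaph2 (48.03 and 44.03 TPM) and Smc2 (32.3 and 36.5 TPM) down to Ncapg2 (2.52 and 2.65 TPM), Rec8 (1.75 and 1.42 TPM) and the meiotic cohesin gene Smc1b (0.04 and 0.03 TPM). That order did not hold on complete coding transcripts, where Smc4 was at 4.74 and 3.98 TPM, Smc2 at 4.26 and 3.71 TPM and Ncaph2 at 31.5 and 29.4 TPM. Of 21 genes of MuvB, DREAM, E2F and NF-Y, the regulators of late cell cycle promoters, 20 were detected and 0 were past 1.2-fold. Rbbp4 was at 168 and 166 TPM, Nfyc at 69.2 and 64.0 TPM and Tfdp1 at 34.8 and 35.1 TPM, and E2f8 (2.30 and 2.63 TPM), E2f2 (1.80 and 1.97 TPM) and Mybl1 (0.53 and 0.47 TPM) were the lowest. On complete coding transcripts Rbbp4 was at 51.6 and 50.7 TPM, below Nfyc at 66.1 and 60.4 TPM, and on the other lists Hjurp and Anapc11 gave up the third place to Ska2 and Anapc5. Foxm1 and Mybl2 thus lay among the lower detected regulators.

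The 8 other mitosis genes past 1.2-fold were named after their values were seen. Cenph (0.40) and the cohesin acetyltransferase gene Esco2 (0.35) were higher in replicate 2, and Clasp1 (-0.46), Haspin (-0.39), Kif14 (-0.39), Arhgap11a (-0.32), Nek2 (-0.30) and Cdc25b (-0.28) were lower. These ratios are on TMM-scaled counts. In TPM Kif14 was not lower (0.60 and 0.64 TPM). Both values lay below its deposited intervals (0.650 to 1.99 TPM and 0.646 to 2.34 TPM), so its level was not well fixed. All 20 S phase genes were detected, with sums of 429 and 471 TPM, led by Rrm2 of nucleotide synthesis (62.2 and 68.3 TPM) and the replication clamp Pcna (56.8 and 62.2 TPM). Of the 20, 3 were past 1.2-fold, all higher in replicate 2, where 15.2% of all genes were past it in either direction and 7.9% higher. Above 0 were 19 of the S phase genes, with a median of 0.15, beside 16 of 36 members. The difference between the lists was not tested.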

How the data were processed

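Total RNA (10 ng, size range above 200 bases, spike-ins added) of 2 hearts was sequenced, per the labels. The deposited read-me names build mm10 and annotation GENCODE M4. Columns carry the names of RSEM output, and no source used here states the aligner or a version. The authors' expected counts, per the file headers, estimate the reads of a feature with ambiguous reads shared out. The deposited TPM and FPKM values are scaled by effective length, and TPM sums over all features, spike-ins and mitochondrial genes included. The bounds of TPM credibility intervals and the posterior SD of counts are deposited signal values whose width is not stated. The deposited percent column is a transcript's share of its gene's TPM.

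Symbols and coordinates came from GENCODE M21 of the same build. Ratios between the pups used expected counts rounded to whole numbers only to compute TMM factors (edgeR 4.0.16, R 4.3.3), a prior count of 2 and a mean count of 50 or more. Pair ratios used TPM + 1. The scripts (Python 3.11.15, pandas 2.3.3, numpy 2.4.6, scipy 1.17.1) were tested on simulated data. For a gene of median length a count of 0 allows up to 3 counts, or 0.0269 and 0.0281 TPM, a limit that covers counting error only.

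Members, lists and pairs were chosen with earlier results of these data known. All members were named, and of each list of other mitosis genes the 3 highest and 3 lowest by mean TPM, and the 2 most abundant S phase genes. Genes past 1.2-fold on those lists, Pdzd11, Rccd1, Cdc23, Scgb3a2, Scgb1a1, Sftpc, Ska2, Anapc5 and Nkx2-1 were named after their values were seen. Of the 8 motif definitions counted, all of them reported, those on CCAAT and E2F words and on position were added after the files were seen, as were the descriptions of exon overlap, neighbours and length. Promoters were printed for the 5 most abundant members with a CHR word. The last 30 bases of 26 of 32 windows were found in a transcript of the gene. Alternatives were other scalings (DESeq2 1.42.0 size factors, total counts, TPM), prior counts, thresholds and units, and each replicate left out.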

Additional observations from a re-analysis of the deposited data

How the results depend on the processing

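The summed level was 873 TPM when TPM was recomputed without mitochondrial genes and spike-ins, and 646 TPM on complete coding transcripts only, an alternative chosen after seeing the data, against 759 TPM. The number of members past 1.2-fold between the pups was 2 with scaling by total count, 2 with a prior count of 0.5 and 0 as a TPM ratio. It was 0 at 1.5-fold, 0 at 2-fold and 11 at 1.1-fold (the last chosen after seeing the data). The share of all genes was not computed at these other bounds and scalings, so these counts cannot be called high or low. With scaling by total count and with a prior count of 0.5, Spc25 was the member that joined, at a log2 ratio of 0.28 and 0.26. As a TPM ratio Ect2 was the one that left, since its mean transcript length, as assigned, differed between the libraries. On counts not divided by length, Tpx2 over Aurka reversed to 0.15. Mad2l1 over Bub1b had a mean of -0.025 there, but the pups differed in sign. Mad2l1 was above Bub1b in replicate 1 (1534 against 1494 counts) and below it in replicate 2 (1522 against 1617 counts). On complete coding transcripts Cenpe over Cenpf reversed to 0.56. Without replicate 1 or without replicate 2 the sum was 746 to 772 TPM, the pairs called 19 to 20 and the other mitosis genes detected 150. Across the other alternatives that required the intervals to be apart, 18 or 19 pairs were called. The 18 were on counts not divided by length, still judged by the TPM intervals. Without that requirement 23 pairs were called, and 24 on complete coding transcripts, where it was not applied either. Members detected were 35 or 36 and other mitosis genes 144 to 153, and the median ratio of the members was -0.04 to -0.01. No paired analysis was possible because there was 1 group. With 2 animals the spread is poorly known. Depth was not the limit for detection, since each member had at least 292 counts, but ratios between the pups rest on 1 library each, and p-values were not computed.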
